A study of Homo sapiens with 6 samples.

Results

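The genes described here make up the unfolded protein response and the protein-folding machinery of the endoplasmic reticulum (ER). They are 38 named genes, found by matching the Ensembl identifiers of the count files to GENCODE symbols, out of 58096 genes listed. The cells were ALL-SIL, an established human line of T-cell acute lymphoblastic leukaemia with rearranged TLX1 and a fusion of NUP214 to ABL1. By their labels the cells of 3 libraries received JQ1 (1 µM for 24 h), and 3 control libraries are labelled DMSO, the solvent. JQ1 is a compound that fills the acetyl-lysine pocket of BET bromodomain proteins and so takes them off chromatin. The treatment text of the controls repeats the JQ1 dose and time, and only the sample titles tell that they received DMSO. All 6 libraries come from 1 cell line. No label tells whether the replicates are cultures grown apart, and the p-values therefore reflect only library-to-library spread, possibly of technical origin.

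The ER folds proteins that enter it through the SEC61 channel. The Hsp70 chaperone BiP (HSPA5) and the lectin chaperones calnexin and calreticulin hold unfolded chains, protein disulfide isomerases form their disulfide bonds, and ER-associated degradation (ERAD) sends failed chains back to the cytosol for the proteasome. When unfolded protein builds up, the membrane sensors ATF6, IRE1 (gene ERN1) and PERK (gene EIF2AK3) start the unfolded protein response. ATF6 is cut to release a transcription factor, IRE1 splices the mRNA of the transcription factor XBP1, and PERK phosphorylates the initiation factor eIF2. ATF6 and XBP1 act on chaperone genes through the ER stress response element, a CCAAT box bound by NF-Y followed by a CCACG box. Gene counts show mRNA abundance and cannot show ATF6 cleavage, XBP1 splicing or PERK activity.

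The sense-strand gene counts ran from 15925885 to 25293884 per library. Levels are given in CPM, the count scaled to the TMM-normalised library size. Fold changes are log2 ratios, JQ1 over DMSO, ± their SE (standard error) from edgeR's quasi-likelihood test, with p adjusted over 13975 tested genes with a threshold of 0.05. Of the T-lineage markers, 10 of 10 were measured, with summed levels of 1050 to 1270 CPM in JQ1 libraries and 1600 to 1770 CPM in DMSO libraries, and 1 was called higher and 7 lower. Of 6 myeloid markers, MPO, S100A8 and S100A9 had 0 reads in every library, and the 6 together reached at most 0.141 CPM in a JQ1 library and 0.0758 CPM in a DMSO library. The 6 B-lineage and plasma cell markers summed to 0.838 to 5.58 CPM in JQ1 and 4.47 to 13.3 CPM in DMSO libraries. Among the erythroid and stromal markers HBB, HBA1 and COL3A1 had 0 sense-strand reads. PECAM1, which T cells can also express (log2 fold change -3.39 ± 0.25), made up nearly all of that list's sum of 4.64 to 9.95 CPM in JQ1 and 65.4 to 91.5 CPM in DMSO libraries. The part of these marker differences in the results was not tested. Fewer cells of a type and less RNA per cell cannot be told apart in bulk libraries.

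Under JQ1 a small set of folding genes fell and most of the others did not pass the test. The genes that fell were the chaperone genes SDF2L1, HSP90B1 and CALR, the disulfide-forming genes PDIA6 and ERO1A, and the genes of the transcription factors XBP1 and ATF6. SIL1, which recharges BiP, rose, as did the degradation genes OS9 and SYVN1. In all 3 members were higher and 7 lower among the 37 that passed the filter on low counts, 27 did not pass the test, and ERO1B had no reads. That is 27.0% of the tested members called, against 36.6% of all tested genes. By direction 8.11% of members were higher, against 15.9% of all genes, and 18.9% were lower, against 20.6% of all genes. The share of members called was thus below that of all genes, and the share that was lower was close to it. The median log2 fold change was -0.12 over the members and 0.00 over all tested genes. With library size as the only scaling 1 member was higher and 8 were lower, and with the replicate number as a block 8 were higher and 13 lower. The block called 56.8% of the members, against 56.9% of all tested genes (27.3% higher, 29.6% lower). The JQ1 and DMSO libraries did not overlap for 11 members (29.7%), against 48.9% of all tested genes.

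**Figure D1:**
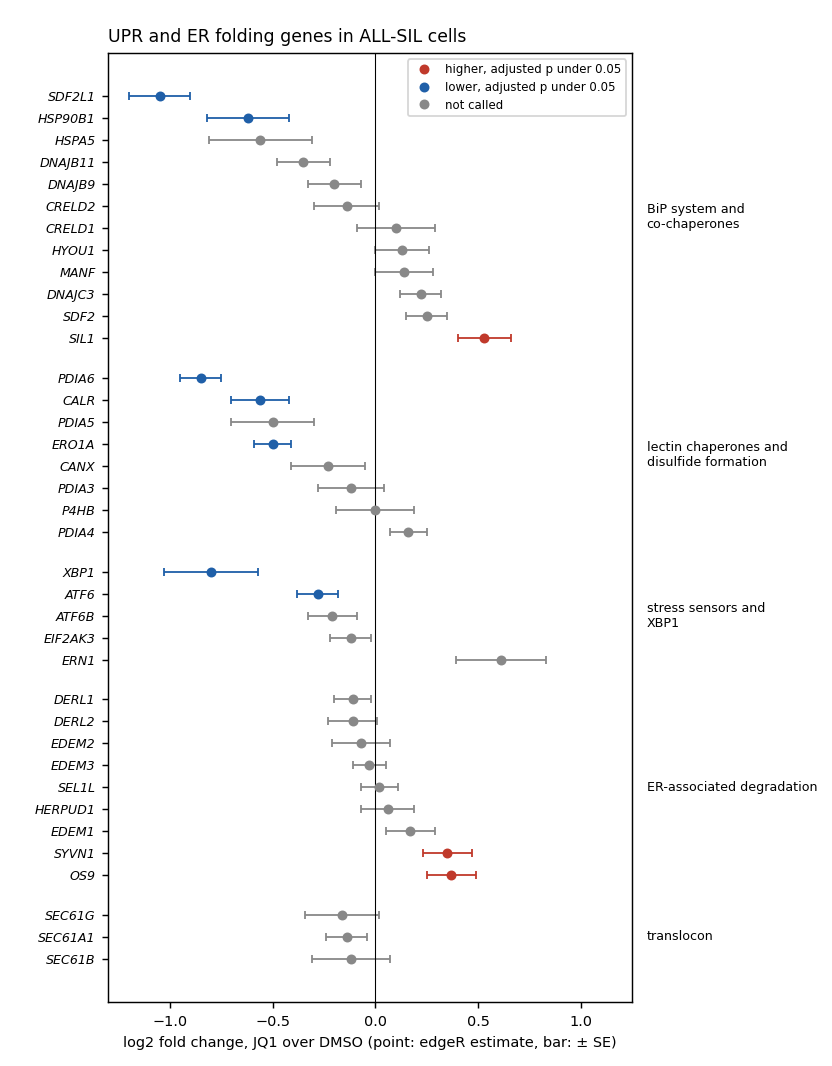
Log2 fold change of JQ1 over DMSO for the 37 tested members, grouped by role, with points at the edgeR estimate and bars of ± SE. The estimates run from -1.05 (SDF2L1) to 0.61 (ERN1), with 7 genes called lower in blue, 3 called higher in red and the rest in grey.

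The stress response elements were read from the promoters, since ATF6 and XBP1 act through them on chaperone genes. Of the chaperone and co-chaperone genes, SDF2L1, HSP90B1 and CALR fell. HSPA5, CANX, DNAJB9, HYOU1 and DNAJC3 did not pass the test, the last pair with log2 fold changes of 0.13 and 0.22. The members were named as genes of this response, and the motifs were chosen after the calls were known. The shares of members with a motif and the fold changes by motif are therefore descriptions and not tests. The windows were the 250 bases before to 50 bases after each RefSeq gene start (build GRCh38.p14), which were given for 36 members, all but DERL1 and PDIA3. The element ERSE (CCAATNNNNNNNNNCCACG, searched on either strand) was found in 8 of these 36 members (22.2%) and in 25 of the 27305 genes with a window (0.0916%). The stretches below show it in the promoters of 4 members that fell (PDIA6, CALR, XBP1 and HSP90B1, the last with a pair of matches) and of 3 that did not pass the test (HSPA5, CRELD2 and CANX), 5′ to 3′ on the strand of the gene, with the CCAAT and CCACG boxes or their reverse complements ATTGG and CGTGG in capitals.
PDIA6: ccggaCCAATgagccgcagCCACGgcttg
CALR: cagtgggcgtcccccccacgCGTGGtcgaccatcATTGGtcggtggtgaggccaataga
XBP1: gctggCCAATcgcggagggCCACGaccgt
HSP90B1, distal match: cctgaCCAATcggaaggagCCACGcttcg
HSP90B1, proximal match: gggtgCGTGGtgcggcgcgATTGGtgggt
HSPA5: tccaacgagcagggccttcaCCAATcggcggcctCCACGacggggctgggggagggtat
CRELD2: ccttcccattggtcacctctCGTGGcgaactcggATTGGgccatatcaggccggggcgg
CANX: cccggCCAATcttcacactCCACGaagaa
The stretch of PDIA6 lies at chr2:10812848-10812876 (minus strand) in an intron of the GENCODE gene model, before a further RefSeq start. That of CALR lies at chr19:12938364-12938422 (plus strand), that of XBP1 at chr22:28800598-28800626 (minus strand) and that of HSPA5 at chr9:125241371-125241429 (minus strand), each upstream of the gene model. Those of HSP90B1 lie at chr12:103930211-103930239 and chr12:103930316-103930344 (plus strand) by RefSeq's coordinates. That of CANX (chr5:179698773-179698801, plus strand) lies inside a GENCODE exon. That of CRELD2 (chr22:49918534-49918592, plus strand) lies in an intron of the gene model. ERO1B, the eighth member with a match, had 0 reads in every library.

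The related element ERSE-II (ATTGG, any 1 base, then CCACG, on either strand) was found in 3 of the 36 members (8.33%) and in 19 of 27305 genes (0.0696%). SDF2L1, which fell the most of all members, holds it, and so do HYOU1 and HERPUD1, neither of which passed the test. The stretches show that the same boxes stand in the promoters of these genes, with 1 base between them and the boxes in capitals.
SDF2L1: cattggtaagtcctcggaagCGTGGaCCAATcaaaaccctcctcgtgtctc
HYOU1, proximal match: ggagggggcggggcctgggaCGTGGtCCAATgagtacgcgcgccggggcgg
HERPUD1: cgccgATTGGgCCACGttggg
They lie at chr22:21642094-21642144 (plus strand), chr11:119057254-119057304 (minus strand) and chr16:56932020-56932040 (plus strand), upstream of the gene models, and HYOU1 holds a further match. The 7 tested members with ERSE had log2 fold changes from -0.85 to -0.14, with a median of -0.56. Of them 4 fell and 0 rose, by edgeR, against 20.6% of all tested genes lower and 15.9% higher. The 3 with ERSE-II had a median of 0.06. The 25 with no exact match to either element, all tested, had a median of -0.03, with 3 higher and 2 lower. Of 7 other tested genes with ERSE, EIF2A fell, TRIM5 and FICD, which encodes the BiP-modifying enzyme, rose, and the median was 0.06. Neighbouring genes can share a match, and ALG12, one of these 7, overlaps CRELD2 on the opposite strand (log2 -0.05 ± 0.16). EIF2A likewise overlaps SERP1, another of the 7, which had a log2 fold change of 0.00 ± 0.10. Of 10 other tested genes with ERSE-II 2 rose and 2 fell, with a median of 0.03. A match is a stretch of letters, and binding was not measured. Only exact matches inside the windows were counted, so genes without a match may hold elements that differ by a base or lie elsewhere. Single CCAAT boxes were common, in 80.6% of the members, 43.7% of the 9455 tested genes with a window and 39.7% of all genes with one. The E-box CACGTG, a site type of MYC, was in 16.7% of the members, 12.5% of tested genes and 8.77% of all genes. The UPRE core TGACGTG was in 5.56% of the members, 3.31% of tested genes and 2.40% of all genes. Among tested genes ERSE was in 0.148% and ERSE-II in 0.137%. ERSE and ERSE-II matches each hold a CCAAT box, and an E-box can share letters with a UPRE core or with a CCACG box.

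**Figure D2:**
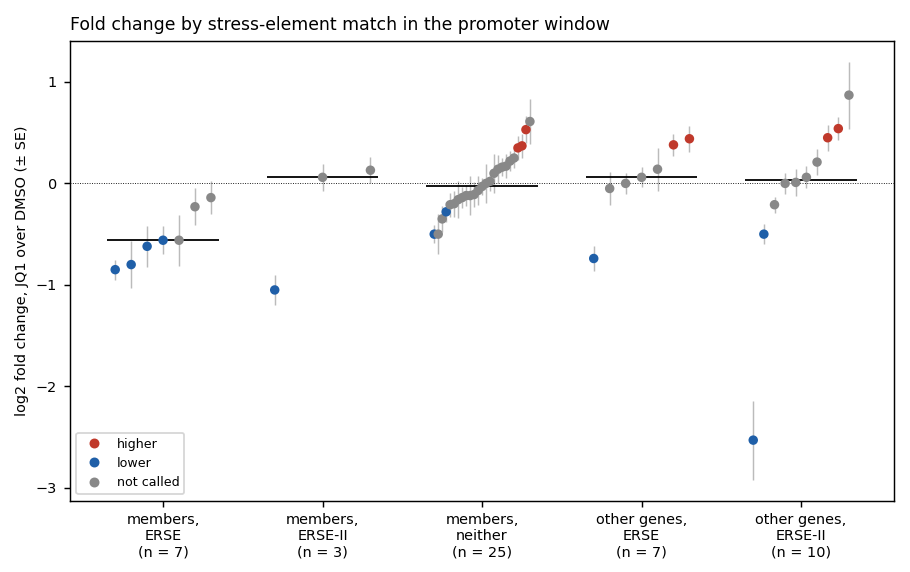
Log2 fold change (JQ1 over DMSO, ± SE) of tested genes by the stress element matched in their promoter window, with black lines at the medians. The 7 members with ERSE all lie below 0 with a median of -0.56, whereas the 7 other genes with ERSE have a median of 0.06.

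BiP and its partners came first by role. HSPA5 had 39.1, 48.6 and 38 CPM in JQ1 replicates 1, 2 and 3, and 40.3, 84.4 and 61.0 CPM in DMSO replicates 1, 2 and 3. The groups overlapped, because DMSO replicate 1 was as low as the JQ1 libraries. Its log2 fold change was -0.56 ± 0.25 with a 95% interval of -1.14 to 0.02 (edgeR adjusted p = 0.12). It passed the test under the block (adjusted p = 0.041), with DESeq2 (0.036) and without DMSO replicate 1 (-0.79, edgeR adjusted p = 0.0071). Without DMSO replicate 2 the change was -0.27 (edgeR adjusted p = 0.29).

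HSP90B1, the Hsp90 of the ER, had 221, 228 and 159 CPM in JQ1 libraries and 252, 410 and 272 CPM in DMSO libraries. The groups did not overlap, and DMSO replicate 2 stood highest, as it did for HSPA5 and XBP1. It fell by 0.62 ± 0.20 on the log2 scale (edgeR adjusted p = 0.043). The call was lost when any library other than DMSO replicate 1 was left out (edgeR adjusted p 0.056 to 0.11) and with upper-quartile factors (0.055), and the change without DMSO replicate 2 was -0.36. The identifier of HSP90B1 in the files (ENSG00000166598.13) differs in version from GENCODE release 29, so its gene position is not given.

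SDF2L1, a partner of the co-chaperone DNAJB11, had 6.79, 7.65 and 5.87 CPM in JQ1 libraries, against 12.9, 15.8 and 13.5 CPM in DMSO libraries. Every JQ1 library lay below every DMSO library, and the fitted level was 2.07-fold lower. The log2 fold change was -1.05 ± 0.15 (edgeR adjusted p = 0.00055), and the call held in all 17 alternatives run. SDF2L1 (ENSG00000128228.4) is a short gene on chromosome 22 (21642261 to 21644298, plus strand), and its counts ran from 91 to 168 reads in JQ1 and from 261 to 401 reads in DMSO libraries. Its paralogue SDF2 had a log2 fold change of 0.25 ± 0.10 (edgeR adjusted p = 0.081), which passed under the block (0.0032) and without DMSO replicate 1 (0.34, edgeR adjusted p = 0.04), and was 0.20 to 0.30 in the other fits without a library.

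SIL1, a nucleotide exchange factor that releases ADP from BiP, had 16.9, 16.0 and 15.2 CPM in JQ1 libraries and 10.6, 10.1 and 12.5 CPM in DMSO libraries. The groups did not overlap, and the gene rose 1.45-fold (log2 0.53 ± 0.13, edgeR adjusted p = 0.0094). SIL1 (ENSG00000120725.12) lies on chromosome 5 (138946720 to 139293557, minus strand). The other exchange factor of BiP, HYOU1, had a log2 fold change of 0.13 with a 95% interval of -0.16 to 0.42 and did not pass.

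The J-domain co-chaperones did not pass the test. DNAJB9, which also represses IRE1, had 16.7, 15.8 and 20.3 CPM in JQ1 libraries and 18.3, 21.6 and 20.4 CPM in DMSO libraries, with overlapping groups and a log2 fold change of -0.20 ± 0.13 (edgeR adjusted p = 0.26). DNAJB11 had -0.35 ± 0.13 (edgeR adjusted p = 0.057) and was called lower under the block (0.00034), when scaled by library size only (0.03) or left unfiltered (0.013), and in the fits lacking JQ1 replicate 1 (0.042) or DMSO replicate 3 (0.02), but not in the other fits lacking a library (-0.33 to -0.25, edgeR adjusted p 0.12 to 0.2). DNAJC3, which also inhibits PERK, had 0.22 ± 0.10 (edgeR adjusted p = 0.097) and was called higher under the block (0.003). MANF, a BiP-binding factor that is also secreted, CRELD1 and CRELD2 had log2 fold changes of 0.14, 0.10 and -0.14, none called in any alternative run.

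Among the lectin chaperones and the disulfide-forming enzymes 3 of 8 tested genes fell and 0 rose, with 0 higher also at an unadjusted p under 0.05 by edgeR and by every alternative except the block, which called PDIA4 higher. The median log2 fold change was -0.37. Over all tested genes 20.6% were lower and 15.9% higher by edgeR, and differences between roles were not tested. PDIA6 had 112, 94.9 and 88.6 CPM in JQ1 libraries, against 183, 183 and 168 CPM in DMSO libraries. The JQ1 libraries all lay far below the DMSO libraries, and the gene fell by 0.85 ± 0.10 on the log2 scale (1.80-fold, edgeR adjusted p = 2e-04). The call held in all 17 alternatives, the test against a fold change of 1.5 included. PDIA6 (ENSG00000143870.12), an isomerase that also binds IRE1, lies on chromosome 2 (10783391 to 10837977, minus strand).

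ERO1A, the oxidase that passes oxidising equivalents to protein disulfide isomerase, had 150, 138 and 145 CPM in JQ1 libraries and 219, 204 and 192 CPM in DMSO libraries. The libraries within each group lay close together and the groups were apart. The gene fell by 0.50 ± 0.09 on the log2 scale (edgeR adjusted p = 0.0016), and ERO1A (ENSG00000197930.12) lies on chromosome 14 (52639916 to 52695900, minus strand). Its paralogue ERO1B had 0 reads on either strand in all 6 libraries, which allows up to 0.114 to 0.193 CPM per library from a count of 0 (3 counts, counting error only).

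CALR, the gene of calreticulin, was the most abundant member per length, at 171 ± 31.1 CPM per kilobase of exon in JQ1 and 251 ± 22.7 in DMSO (SD, n = 3). It had 558, 435 and 396 CPM in JQ1 libraries, against 627, 748 and 668 CPM in DMSO libraries. JQ1 replicate 1 came nearest to the controls, but the groups did not overlap. CALR (ENSG00000179218.13, chromosome 19, 12938578 to 12944489, plus strand) fell by 0.56 ± 0.14 on the log2 scale (edgeR adjusted p = 0.011), and the call was lost only against a fold change of 1.5.

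CANX, the gene of the membrane-bound calnexin, had 798, 511 and 544 CPM in JQ1 libraries and 856, 654 and 669 CPM in DMSO libraries. Replicate 1 was the highest library of each group, so the groups overlapped although each JQ1 library lay below the DMSO library of its number. The log2 fold change was -0.23 ± 0.18 (edgeR adjusted p = 0.34, and 0.0027 under the block). Without JQ1 replicate 1 it was -0.46 (edgeR adjusted p = 0.046), whereas without JQ1 replicate 2, JQ1 replicate 3 or DMSO replicate 1 it was -0.11, -0.15 and -0.10 (edgeR adjusted p 0.62 to 0.74). P4HB, the founding disulfide isomerase, showed the same high replicate 1 in JQ1 and DMSO, with a log2 fold change of 0.00 and a 95% interval of -0.43 to 0.43, and from -0.22 to 0.18 when single libraries were left out.

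PDIA3, which works with calnexin and calreticulin, had -0.12 ± 0.16 (edgeR adjusted p = 0.59). Reads that fit its processed pseudogene PDIA3P1 equally well are lost if multimapping reads were left out, so its level is uncertain. PDIA4 had 0.16 ± 0.09 (edgeR adjusted p = 0.20, and 0.041 under the block). PDIA5 had -0.50 ± 0.20 (edgeR adjusted p = 0.072) and was called lower under the block (0.00029), when unfiltered (0.013) and without JQ1 replicate 1 (-0.71, edgeR adjusted p = 0.021). It was -0.34 without DMSO replicate 1 (edgeR adjusted p = 0.25) and -0.40 and -0.41 without JQ1 replicate 2 or 3 (edgeR adjusted p = 0.19 each). Of these isomerases PDIA6 alone passed the edgeR test, and differences between the genes were not tested.

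**Figure D3:**
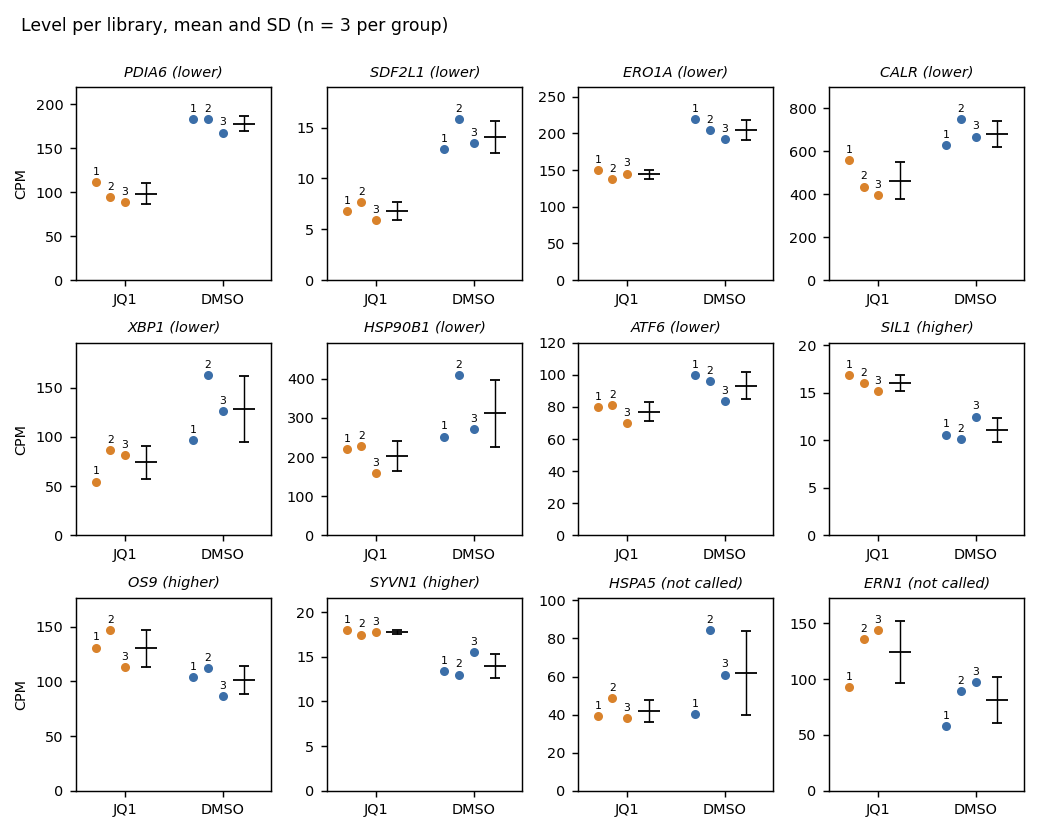
Level in CPM of the 10 called members and of HSPA5 and ERN1 in each library (numbered points, JQ1 left and DMSO right), with the mean and SD of each group beside them. SDF2L1, PDIA6 and ERO1A show the widest gaps for their spread, while DMSO replicate 2 stands highest for HSPA5, HSP90B1 and XBP1.

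Of the sensors and XBP1, XBP1 and ATF6 fell and 0 of 5 rose by edgeR, although DESeq2 and the block called ERN1 higher. Among all tested genes 20.6% were lower and 15.9% higher by edgeR. XBP1 had 54.5, 86.3 and 81.3 CPM in JQ1 libraries, against 96.6, 163 and 126 CPM in DMSO libraries. Replicate 1 was the lowest in each group, and the groups did not overlap. It fell by 0.80 ± 0.23 on the log2 scale (1.74-fold, edgeR adjusted p = 0.027, and 3.3e-12 under the block). The call was lost without JQ1 replicate 3 (-0.87, edgeR adjusted p = 0.056), DMSO replicate 2 (-0.58, edgeR adjusted p = 0.058) or DMSO replicate 3 (-0.81, edgeR adjusted p = 0.073). XBP1 (ENSG00000100219.16) lies on chromosome 22 (28794555 to 28800597, minus strand). Its counts join the spliced and unspliced mRNA, and reads shared with the processed pseudogene XBP1P1 may be lost, so its level is uncertain.

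ERN1, the gene of the enzyme IRE1 that splices XBP1, had 92.8, 136 and 144 CPM in JQ1 libraries and 57.8, 89.2 and 97.1 CPM in DMSO libraries. The groups overlapped, since JQ1 replicate 1 lay below DMSO replicate 3. The log2 fold change of 0.61 ± 0.22 did not pass the test (edgeR adjusted p = 0.07). Within replicate numbers the log2 ratios were 0.68, 0.61 and 0.56, and under the block the gene was called higher (adjusted p = 2.1e-10), as with DESeq2 (0.0086), when unfiltered (0.002) and without JQ1 replicate 1 (0.78, edgeR adjusted p = 0.02). In the other fits without a library it was 0.42 to 0.76 (edgeR adjusted p 0.064 to 0.18). For XBP1 the ratios within numbers were -0.83, -0.91 and -0.63, so each JQ1 library held more ERN1 and less XBP1 mRNA than the DMSO library of its number.

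ATF6 had 79.9, 81.0 and 70.0 CPM in JQ1 libraries and 100, 96.0 and 83.6 CPM in DMSO libraries. The groups did not overlap, but only a narrow gap lay between them. The log2 fold change was -0.28 ± 0.10, a call at the edge of the threshold (edgeR adjusted p = 0.04955, and 0.00024 under the block). It was lost without JQ1 replicate 1, 2 or 3 or DMSO replicate 1 or 2 (-0.31 to -0.21, edgeR adjusted p 0.059 to 0.18), with DESeq2 (0.073), with limma-voom (0.054), with relative log expression (0.058) or upper-quartile factors (0.057), with unstranded counts (0.051) and without mitochondrial and small RNA genes (0.053).

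Its paralogue ATF6B, whose gene overlaps TNXB on the same strand so that shared reads may be lost, had a log2 fold change of -0.21 ± 0.12 (edgeR adjusted p = 0.22). It was called lower under the block (0.01) and without JQ1 replicate 2 (-0.36, edgeR adjusted p = 0.034), and lay at -0.26 to -0.13 in the other fits without a library (edgeR adjusted p 0.2 to 0.53). EIF2AK3, the gene of PERK, had 46.4, 50.1 and 41.6 CPM in JQ1 libraries and 53.4, 51.8 and 44.6 CPM in DMSO libraries. These groups overlapped, and the log2 fold change was -0.12 with a 95% interval of -0.35 to 0.12 (edgeR adjusted p = 0.42, and 0.14 under the block).

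Of the 9 ERAD members 2 rose and 0 fell (edgeR), against 15.9% higher and 20.6% lower among all tested genes. In so few genes 1 call moves the share widely. Their median log2 fold change was 0.02, and 0 were lower at an unadjusted p under 0.05 or by DESeq2 or limma-voom. OS9, a lectin that hands glycoproteins to the degradation complex, had 131, 147 and 113 CPM in JQ1 libraries and 104, 112 and 86.8 CPM in DMSO libraries. The lowest JQ1 library lay just above the highest DMSO library. OS9 (ENSG00000135506.15, chromosome 12, 57693955 to 57721557, plus strand) rose by a log2 fold change of 0.37 ± 0.12 (edgeR adjusted p = 0.036, and 3.4e-06 under the block). The call was lost without JQ1 replicate 1 or 2 or DMSO replicate 1 or 3 (0.28 to 0.40, edgeR adjusted p 0.067 to 0.12) and with library size only (0.31, edgeR adjusted p = 0.057).

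SYVN1, the ubiquitin ligase HRD1 at the centre of that complex, had 18, 17.5 and 17.8 CPM in JQ1 libraries, against 13.4, 13.0 and 15.5 CPM in DMSO libraries. The JQ1 libraries were nearly equal and all above the controls, and the gene rose by a log2 fold change of 0.35 ± 0.12 (edgeR adjusted p = 0.042). The call was lost in every fit without a library except that without DMSO replicate 3 (0.30 to 0.36, edgeR adjusted p 0.077 to 0.14), with unstranded counts (0.061), with no filter (0.097) and with library size only (0.12). SYVN1 overlaps FAU on the same strand, where shared reads may be lost.

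SEL1L, the adaptor of SYVN1, had a log2 fold change of 0.02 with a 95% interval of -0.18 to 0.21, and the scaffold HERPUD1 had 0.06 with -0.24 to 0.35. The mannosidase-like genes EDEM1, EDEM2 and EDEM3, which mark glycoproteins for degradation, had 0.17, -0.07 and -0.03, and the block called EDEM1 higher (adjusted p = 0.013). The membrane proteins DERL1 and DERL2 each had -0.11. The 3 subunits of the SEC61 channel, SEC61A1, SEC61B and SEC61G, had -0.14, -0.12 and -0.16, and of these the block called SEC61G lower (adjusted p = 0.036). For SEC61B and SEC61G replicate 1 was again the highest library of each group, at 69.3 CPM in JQ1 and 79.1 CPM in DMSO for SEC61B.

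Libraries of the same number deviated together (correlations of 0.33, 0.43 and 0.37), so each JQ1 library can also be read against the DMSO library of its number. By this reading 20 of 37 tested members (54.1%) were lower in all 3 pairs, against 36.7% of all tested genes, and 8 (21.6%) were higher in all 3, against 35.7% of all tested genes. The pair numbered 1 stood apart for some chaperones: HSPA5, HSP90B1, CALR and CANX had log2 ratios of -0.04, -0.19, -0.17 and -0.10 in it, against -0.84 to -0.30 in the other pairs. SDF2L1, PDIA6 and XBP1 were lower by at least 0.63 on the log2 scale in every pair. The block added 11 member calls and lost 0. Besides the genes named above as changed under the block, no member was added by it. The members together took 0.474%, 0.393% and 0.371% of gene counts in JQ1 libraries, against 0.491%, 0.502% and 0.484% in DMSO libraries. The groups did not overlap (2-sided exact permutation p = 0.10, the smallest that 3 against 3 allows). The permutations here took the libraries as unpaired, and the shares are of counts without TMM scaling. With library size only, the median log2 fold change was -0.18 over the members and -0.06 over all tested genes. The summed share weighs abundant genes most, such as CALR (mean 463 CPM in JQ1, 681 CPM in DMSO), CANX (617 and 726) and HSP90B1 (203 and 311). P4HB, also abundant, stood at 481 CPM in both groups. Of the 37 tested members 27 were not called and 14 had a log2 fold change above 0. By role the mean shares in JQ1 and DMSO libraries were 0.212% and 0.269% for lectin chaperones and disulfide formation, 0.0676% and 0.0809% for the BiP system, and 0.0354% and 0.0409% for sensors and XBP1 (exact permutation p = 0.3 each). They were 0.0287% and 0.033% for the translocon (exact permutation p = 0.2) and 0.0693% and 0.069% for ERAD (exact permutation p = 0.9).

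**Figure D4:**
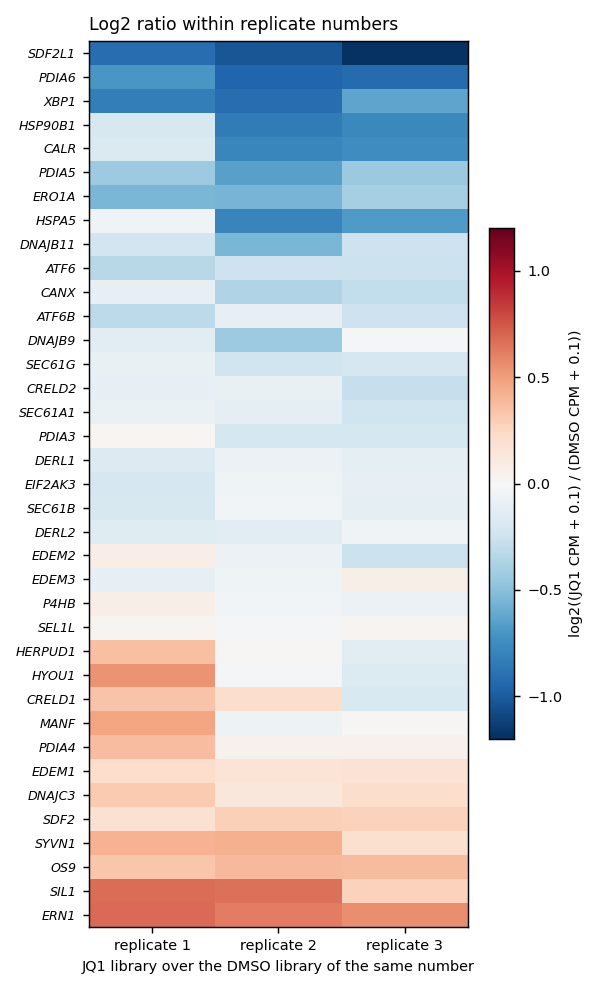
Log2 ratio of each JQ1 library to the DMSO library of its number for the 37 tested members, ordered by their mean (blue lower in JQ1, red higher). SDF2L1, PDIA6 and XBP1 are lower and ERN1, SIL1 and OS9 are higher in all 3 pairs, while HYOU1 and HERPUD1 differ in sign between pairs.

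Per length of exon, which allows genes to be set beside each other, CALR, CANX and P4HB were the 3 highest members in JQ1 (171, 99.0 and 90.8 CPM per kilobase) and in DMSO (251, 117 and 90.7). HSPA5 stood at 10.7 ± 1.49 in JQ1 and 15.8 ± 5.65 in DMSO, below HSP90B1 at 43.2 ± 8.13 and 66.3 ± 18.3 (SD, n = 3). ERN1 had 11.4 ± 2.53 in JQ1 and 7.49 ± 1.92 in DMSO, EIF2AK3 8.47 ± 0.778 and 9.19 ± 0.866, and ATF6 9.75 ± 0.765 and 11.8 ± 1.09. The sensors of the 3 branches thus spanned 8.47 to 11.4 in JQ1 and 7.49 to 11.8 in DMSO. The lowest tested members were CRELD1 at 1.81 in JQ1 and 1.68 in DMSO and CRELD2 at 2.10 and 2.32. These lengths join all exons of all transcripts of a gene, which understates genes with many rare exons.

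Genes around the members were read in 7 further lists. Every list count below stands beside the shares of all tested genes, 20.6% lower and 15.9% higher by edgeR. Under the block these shares were 29.6% lower and 27.3% higher. The lists are small, so 1 gene moves a share widely, and none was tested as a set. In the list of ER thiol and prolyl isomerases outside the members 5 of 16 fell and 0 rose by edgeR (median -0.16), with 1 higher at an unadjusted p under 0.05 and 4 higher and 7 lower under the block. TXNDC5, a disulfide isomerase, had 1.59 ± 0.448 CPM in JQ1 and 3.43 ± 0.440 CPM in DMSO (SD, n = 3; log2 -1.10 ± 0.26, edgeR adjusted p = 0.0071). The peroxiredoxin PRDX4, which uses peroxide to oxidise isomerases, had 24.9 ± 7.43 CPM in JQ1 and 49.3 ± 9.24 CPM in DMSO (log2 -0.97 ± 0.21, edgeR adjusted p = 0.0078). The membrane thioredoxin TMX4 fell by 0.45 ± 0.11. All 3 libraries of JQ1 lay below all 3 of DMSO for each of these genes.

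Other ERAD genes went in opposite directions, with 5 of 18 higher and 2 lower (median -0.05), and 5 higher and 6 lower under the block. UBE2J1, the ubiquitin-conjugating enzyme that works with SYVN1, had 54.2 ± 9.45 CPM in JQ1 and 109 ± 7 CPM in DMSO (log2 -1.01 ± 0.12, edgeR adjusted p = 0.00019). AUP1, a partner of the degradation complex, fell by 0.63 ± 0.08. The cofactor NPLOC4 rose by 0.48 ± 0.09, and its partners in the segregase that pulls chains from the membrane, named after their values were seen, rose too, VCP by 0.58 ± 0.12 (558 ± 49.1 CPM in JQ1, 373 ± 42.3 CPM in DMSO) and UFD1 by 0.59 ± 0.12.

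The list of the PERK branch and its stress targets had 2 of 12 higher and 2 lower (median 0.06), and 4 higher and 3 lower under the block. ATF4, whose translation PERK raises, had a log2 fold change of -0.02 ± 0.21 (edgeR adjusted p = 0.96), and DDIT3, its pro-apoptotic target CHOP, had 0.26 ± 0.15 (edgeR adjusted p = 0.21, and 0.017 under the block). PPP1R15A, which brings phosphatase to eIF2, had 28.7 ± 3.50 CPM in JQ1 and 16.8 ± 1.26 CPM in DMSO (log2 0.77 ± 0.12, edgeR adjusted p = 0.00087). TRIB3, another stress target, had 13.4 ± 6.5 CPM in JQ1 and 39.2 ± 4.73 CPM in DMSO (log2 -1.54 ± 0.30, edgeR adjusted p = 0.0059), and EIF2A fell by 0.74 ± 0.12. EIF2A encodes a separate initiation factor, not the eIF2 that PERK phosphorylates, yet the list's count of lower genes includes it. The phosphorylated subunit of eIF2 is encoded by EIF2S1, which had -0.16 ± 0.09 (edgeR adjusted p = 0.19).

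The list of processing partners of ATF6 and IRE1 also holds the NF-Y subunits and relatives of ATF6. Its counts therefore do not describe processing alone. In it 2 of 13 rose and 1 fell (median -0.03), and under the block 5 rose and 4 fell. NFYA, a subunit of the factor NF-Y that binds the CCAAT box of the stress elements, had 112 ± 5.08 CPM in JQ1 and 57.4 ± 6.29 CPM in DMSO (log2 0.96 ± 0.10, edgeR adjusted p = 7e-05). The other subunits did not pass, NFYB at 0.19 ± 0.08 and NFYC at -0.03 ± 0.11. CREB3, a relative of ATF6, rose by 0.35 ± 0.11 and TRAF2, which binds IRE1, fell by 0.29 ± 0.10. The CREB3 call was lost in 8 alternatives and that of TRAF2 in 12, besides the test against a fold change of 1.5, among them 5 fits without a library for each (CREB3 0.31 to 0.37, edgeR adjusted p 0.054 to 0.08; TRAF2 -0.31 to -0.20, edgeR adjusted p 0.083 to 0.17). The proteases MBTPS1 and MBTPS2, which cut ATF6, had -0.18 ± 0.08 and -0.21 ± 0.18 and did not pass.

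Genes of entry, glycosylation and exit were read next. Of 16 other translocation and signal peptidase genes 1 rose and 2 fell (median -0.02), and under the block 3 rose and 6 fell. SRPRB, a subunit of the receptor that docks ribosomes at the ER, had 44.8 ± 3.45 CPM in JQ1 and 77.7 ± 5.01 CPM in DMSO (log2 -0.79 ± 0.09, edgeR adjusted p = 0.00016). SSR2 fell by 0.37 ± 0.11 and TRAM2 rose by 0.25 ± 0.09, calls that were lost in fits without a library (SSR2 without JQ1 replicate 1 or 3 or DMSO replicate 1 or 2, -0.36 to -0.27, edgeR adjusted p 0.067 to 0.11; TRAM2 without JQ1 replicate 1 or 3 or DMSO replicate 1 or 2, 0.21 to 0.27, edgeR adjusted p 0.074 to 0.13). The TRAM2 call was also lost with library size only (0.15), unfiltered (0.099) and with unstranded counts (0.067). Of 14 genes of N-glycan transfer and lumenal glucosidases 1 rose and 1 fell (median 0.09), and under the block 4 rose and 4 fell.

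STT3A, the catalytic subunit of the co-translational oligosaccharyltransferase, had 132 ± 12.9 CPM in JQ1 and 189 ± 28.0 CPM in DMSO (log2 -0.52 ± 0.12, edgeR adjusted p = 0.0071). MAGT1, a subunit of the post-translational one, rose by 0.32 ± 0.11, a call lost without JQ1 replicate 1 or 2 or DMSO replicate 2 or 3 (0.24 to 0.32, edgeR adjusted p 0.088 to 0.16), with library size only (0.087) and with unstranded counts (0.062). In ER to Golgi transport and retrieval 3 of 19 fell and 0 rose by edgeR (median -0.08), with 3 higher at an unadjusted p under 0.05 and 3 higher and 8 lower under the block. The genes that fell were the coat subunit SEC23A (-0.34 ± 0.09), the cargo receptor SURF4 (-0.35 ± 0.09) and KDELR1 (-0.42 ± 0.12), the receptor that returns chaperones such as BiP to the ER. SURF4 lost its call without JQ1 replicate 3 (-0.29, edgeR adjusted p = 0.061) or DMSO replicate 2 (-0.30, edgeR adjusted p = 0.053), and KDELR1 without JQ1 replicate 3 (-0.37, edgeR adjusted p = 0.056) or DMSO replicate 1 (-0.32, edgeR adjusted p = 0.067).

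**Figure D5:**
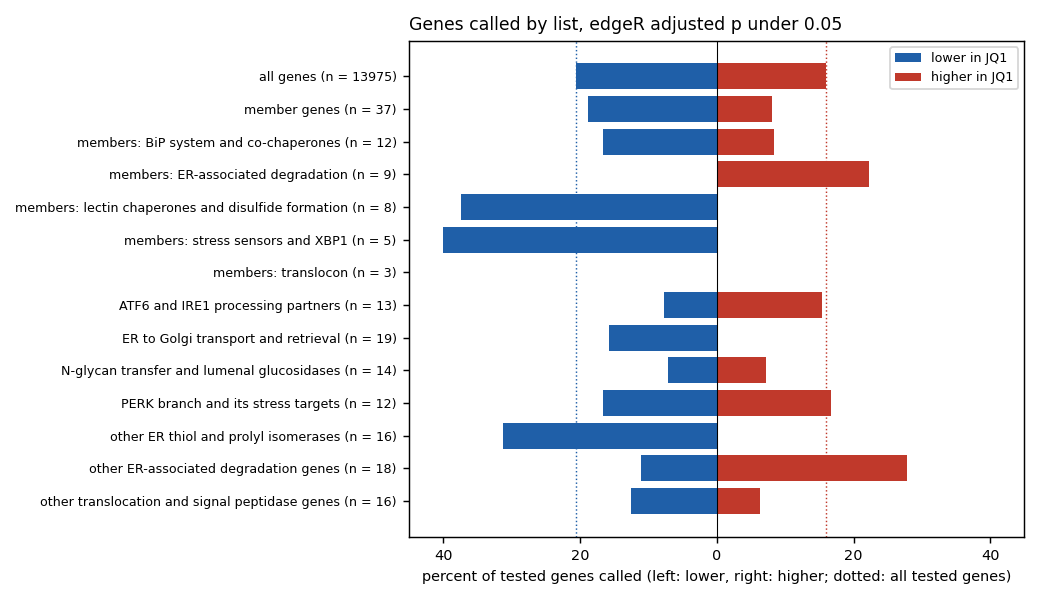
Percent of tested genes called lower (left) and higher (right) in JQ1 for all genes, the members, the members by role and 7 further lists, with dotted lines at the shares of all tested genes (20.6% lower, 15.9% higher). The member genes had 18.9% lower and 8.11% higher, and many lists hold under 20 genes, so that 1 gene moves a bar widely.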

How the data were processed

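Total RNA was sequenced in 6 libraries of ALL-SIL cells with a stranded total RNA kit, per the labels' protocols, and GRCh38 is the build named per the submitters' processing notes. The deposited files hold raw counts per gene, not normalised, in the layout of STAR's gene counts. The annotation release behind them is not given in the sources used here. The reverse-strand column was used (20.9 to 22.6 times the opposite strand). The read classes (unmapped 1.48% to 1.99%, multimapping 14.1% to 15.7%, no gene 18.8% to 26.1%, ambiguous 3.38% to 3.88%) stayed out of totals. Of 58096 identifiers 53747 matched GENCODE release 29 with version and 57492 without, and all 38 members matched, 33 with version; gene positions and GENCODE features are given for those only, while the coordinates of promoter stretches are RefSeq's.

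Genes were filtered with filterByExpr (minimum count 10, total 15), scaled by TMM (0.965 to 1.06) and tested with edgeR 4.0.16 (glmQLFit, glmQLFTest, robust, group only; R 4.3.3), with Benjamini-Hochberg adjustment over 13975 genes; the common coefficient of variation was 0.126. In simulated counts for this comparison over 13975 genes, 100 genes were changed 2-fold and 100 were changed 1.5-fold. Of those that passed the filter, 67% of the 2-fold and 41.2% of the 1.5-fold changes were recovered. Of the genes left unchanged 9 were called. The alternatives were DESeq2 1.42.0, limma-voom (limma 3.58.1), 3 other scalings, 2 other filters, counts from either strand, removal of mitochondrial and small RNA genes, the replicate number as a block, edgeR's test for changes beyond 1.5-fold and the omission of each library. Libraries of a group differed by more than sampling noise (chi-square per degree of freedom 15.5 to 32.8). The groups share replicate numbers, and same-numbered libraries deviated together (0.33, 0.43 and 0.37 across genes), a pairing seen in the data and not stated in the labels.

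The members and lists were chosen with earlier results of these data known. Every called member, HSPA5, HSP90B1, XBP1, ATF6, ERN1, EIF2AK3 and DNAJB9 are given by library; of each further list up to 3 called genes with the smallest p, with DDIT3, ATF4 and PPP1R15A. The motifs were chosen after the calls were known. Promoter windows are RefSeq's (GRCh38.p14).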

Additional observations from a re-analysis of the deposited data

How the results depend on the processing

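Of the member genes, 3 were called higher and 7 lower. Tested for changes beyond 1.5-fold these counts were 0 and 2, with the replicate block 8 and 13, and with library size only 1 higher. The fits without 1 library gave 1 to 2 members higher and 4 to 8 lower, the lowest counts of lower genes without JQ1 replicate 3 or DMSO replicate 2 (4 each) and of higher genes without JQ1 replicate 2 (1). Over all genes 2227 were higher and 2883 lower, against 3813 higher with the block (4133 lower) and 246 and 899 against a fold change of 1.5, and 1707 to 1901 higher and 2436 to 2627 lower without 1 library. No member changed direction while called. SDF2L1 and PDIA6 kept their call in all 17 alternatives, and SIL1, CALR and ERO1A in 16, all but the test against a fold change of 1.5. Calls on HSP90B1, XBP1, ATF6, SYVN1 and OS9 each depended on several single libraries; the cause was not tested. In simulated counts 41.2% of the 1.5-fold changes that passed the filter were recovered. Only 100 genes were changed by each fold there, whereas 5110 genes were called in the data. The adjusted threshold was thus stricter in the simulation, so this share does not carry over. What 3 libraries a group can call was not measured.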
